A study of Homo sapiens with 9 samples.

Results

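The 52 genes described here carry out autophagy or work in the lysosome, and were taken by symbol from a fixed list out of the 60683 genes counted in the study. All 52 symbols matched a gene. They comprise 5 subunits of the initiation complex, 5 subunits of the class III phosphatidylinositol 3-kinase complexes, 5 genes of phagophore growth, 8 genes of the conjugation machinery, 5 members of the ATG8 family, 6 cargo receptors, 3 MiT/TFE transcription factors, 4 lysosomal membrane proteins and 11 proteins of the lysosomal lumen. The rule uses their symbols alone, and the list was drawn up with earlier results of these data known.

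Total RNA was sequenced from HEK293T, a cell line established from human embryonic kidney and carrying the SV40 large T antigen. Each of 3 groups had 3 replicate libraries: parental cells without a reporter, clone 15 and clone 37. Both clones descend from single sorted cells in which piggyBac transposition had inserted ATG-(CAG)60-Myc-NLuc, a luciferase reporter behind 60 CAG units, together with ATG-(CAG)0-Myc-FLuc, a second luciferase without the repeat. Clone 37 was selected for high and clone 15 for low expression of both integrands. A single clone stands for each level, so the level of the reporters and any other property of a clone cannot be told apart, and no clone carries the repeat-free reporter alone. Reads were 75 bp long in the parental and clone 37 libraries and 100 bp long in all clone 15 libraries, so an effect of read length cannot be told apart from one of clone 15.

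Macroautophagy encloses cytoplasm, damaged organelles or protein aggregates in a membrane, the autophagosome, which then fuses with lysosomes that degrade the content. A kinase complex around ULK1 or ULK2 starts the process, a lipid kinase complex around PIK3C3 marks the growing membrane, and ubiquitin-like conjugation attaches LC3 and GABARAP proteins to it, where receptors such as SQSTM1 tether cargo. The pathway is known as a clearance route for proteins with expanded polyglutamine, which CAG repeats encode, and lysosomal genes are known targets of TFEB, TFE3 and MITF.

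The MiT/TFE factors bind a short palindrome with the core CACGTG, and its longer form TCACGTGA is typical of lysosomal promoters. Both motifs were searched in the RefSeq promoter table (GRCh38.p14, 250 bases before to 50 bases after each start). A palindrome reads the same on both strands, and every TCACGTGA also holds a CACGTG. Of the 52 members, 44 had an entry. CACGTG occurred in 7 of these 44 (15.9%), against 2396 of all 27305 genes in the table (8.77%), and TCACGTGA in 4 (9.09%) against 321 (1.18%). The members with a match were LAMP1, MCOLN1, CTSA, NEU1, CTSD, ATG14 and ATG3. The 3 with TCACGTGA ahead of the start are printed here to show where the motif lies. Counted from the start, the printed TCACGTGA begin at -29 in LAMP1, at -42 and -15 in MCOLN1 and at -26 in CTSA. Each line gives the 200 bases that end just before the annotated start, on the plus strand, with the motifs in capitals. They lie at chr13:113297039-113297238 (LAMP1), chr19:7522424-7522623 (MCOLN1) and chr20:45891135-45891334 (CTSA).
LAMP1: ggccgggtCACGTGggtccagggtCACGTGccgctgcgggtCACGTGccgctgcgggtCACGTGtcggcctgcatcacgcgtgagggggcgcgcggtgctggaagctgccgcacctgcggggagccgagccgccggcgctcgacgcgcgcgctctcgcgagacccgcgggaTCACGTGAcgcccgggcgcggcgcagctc
MCOLN1: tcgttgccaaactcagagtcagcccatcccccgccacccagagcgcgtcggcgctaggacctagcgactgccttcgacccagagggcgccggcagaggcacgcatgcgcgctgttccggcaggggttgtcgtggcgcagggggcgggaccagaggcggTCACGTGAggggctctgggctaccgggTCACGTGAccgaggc
CTSA: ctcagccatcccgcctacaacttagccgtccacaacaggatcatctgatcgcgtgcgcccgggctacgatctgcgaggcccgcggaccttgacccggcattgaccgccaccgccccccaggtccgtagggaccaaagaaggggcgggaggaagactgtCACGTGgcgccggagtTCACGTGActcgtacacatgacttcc
LAMP1 holds 5 copies of CACGTG in this stretch, of which 1 is the longer form, MCOLN1 holds 2 of the longer form, and CTSA holds 2 copies, of which 1 is the longer form. A further TCACGTGA of LAMP1 begins at -2 and runs past the start, so the printed stretch cuts it and leaves it unmarked. A match describes letters in a window and is not evidence of binding.

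Gene counts summed to between 10334090 and 38093340 per library, with all 3 clone 15 libraries deeper than any of the others. The kidney-lineage genes PAX2, LHX1, EYA1, SALL1 and GATA3, known from this line, were detected in all groups, with group means from 7.52 to 90.04 CPM (gene counts scaled to a library total of 1000000). Neurofilament genes, also known from HEK293 lines, differed widely, with sums of 706 to 908 CPM in parental, 3397 to 3532 CPM in clone 15 and 201 to 205 CPM in clone 37. Macrophage markers summed to at most 1.38 CPM, with CD163 at 0 in every library, and the 4 melanocyte markers to at most 3.75 CPM, led by PMEL at means of 1.77 to 2.32 CPM, with TYR and MLANA at 0 in parental and clone 37. The fibroblast collagens COL1A1 and COL1A2 were higher in clone 15, where COL1A2 ran unevenly from 5.59 to 56.8 CPM between libraries and was 0 elsewhere. The fibroblast list summed to 54.4 to 168 CPM in clone 15, against 34.7 to 37.8 CPM in parental and 18.9 to 20.9 CPM in clone 37. LUM of this list went the other way, with means of 2.14 CPM in parental, 0.871 CPM in clone 15 and 0.413 CPM in clone 37. The part of the neurofilament and collagen differences in the results below was not tested. Parental replicate 2 stood apart from the other two parental libraries: its members deviated from the group median by a median of 0.14 on the log2 scale, against 0.07 and 0.09. Clone 15 replicate 2 differed most within its group (0.09 against 0.07 and 0.08). Counts of members called are therefore also given without these libraries. The labels do not say whether replicates were separate cultures, so p-values measure the spread between these libraries, which may be technical.

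MAP1LC3A was close to 0 in every group and CTSZ in both clones, and each of the other 50 members had a mean of at least 3.52 CPM in every group. Summed over all members, the level was 3506 ± 68.3 CPM in parental, 3806 ± 47.5 CPM in clone 15 and 3547 ± 15.3 CPM in clone 37 (SD, n = 3 each). Levels of different genes can be set side by side only per kilobase of transcript. On that scale the most abundant members in parental cells were GLA, which encodes the lysosomal alpha-galactosidase, at 110.1 CPM per kb, and PSAP, the precursor of the saposins, at 108 CPM per kb. GABARAPL2 led the ATG8 family at 70.6 CPM per kb, LAMP2 led the membrane proteins at 56.2 CPM per kb and TAX1BP1 led the receptors at 35.5 CPM per kb. Of the transcription factors, MITF at 3.96 and TFEB at 2.36 CPM per kb were among the scarcest members in parental cells, and TFE3 stood at 11 CPM per kb. In both clones SQSTM1 took the lead among the receptors, at 51.8 CPM per kb in clone 15 and 53 CPM per kb in clone 37.

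**Figure D1:**
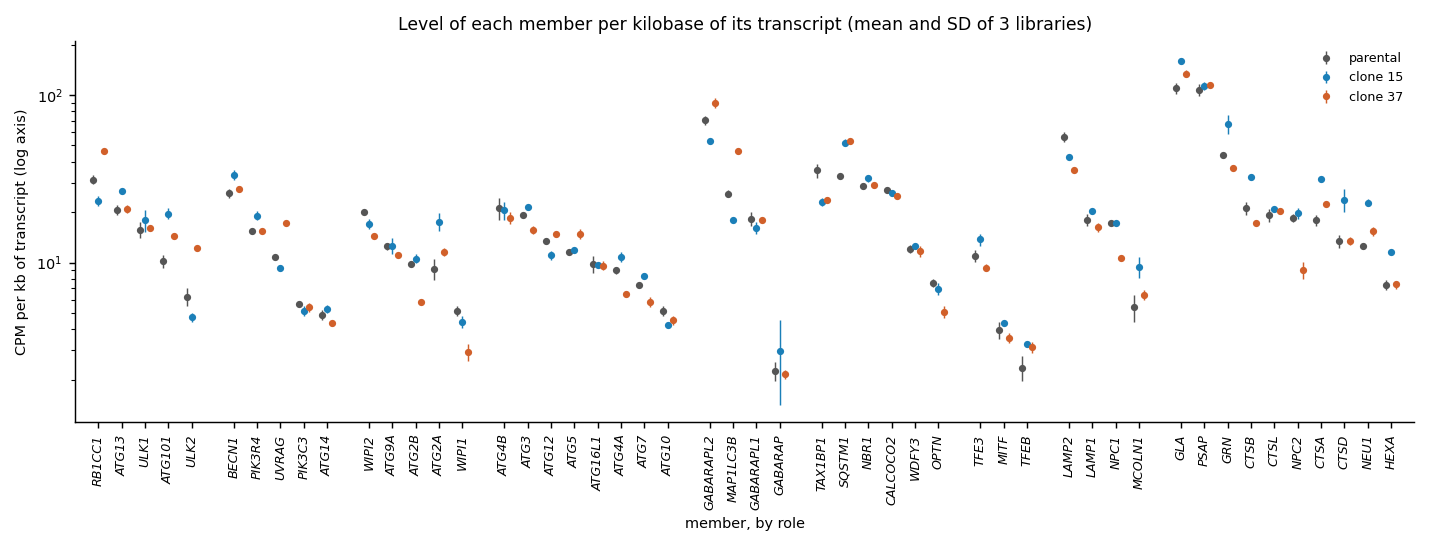
Mean level of each member in CPM per kilobase of its longest coding transcript (log axis) with the SD of 3 libraries, by role, in parental (grey), clone 15 (blue) and clone 37 (orange). MAP1LC3A and CTSZ are left out because single libraries were at 0. In parental cells GLA, PSAP and GABARAPL2 stand highest and GABARAP and TFEB lowest of the members drawn, and most members differ little between groups on this scale, while MAP1LC3B, ULK2 and CTSB spread visibly.

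Each pair of groups was tested over all genes with edgeR's quasi-likelihood test, and a gene was called at a Benjamini-Hochberg adjusted p under 0.05. Log2 fold changes are given ± SE throughout. In clone 37 against parental, 29 of 51 tested members were called (56.9%), 13 higher and 16 lower, against a background of 54% of all 16501 genes tested (26.7% higher and 27.3% lower). In clone 15 against parental, 27 of 51 were called (52.9%), 16 higher and 11 lower, against 51.4% of 17703 genes (25.1% higher and 26.2% lower). Both shares are close to their backgrounds. With GC and length trends removed the clone 15 calls were 21 higher and 7 lower, against 25.2% and 23.5% of all genes, and the calls gained included ATG3 (0.30, adjusted p = 0.00313), MITF (0.30, 0.0296), ATG5 (0.22, 0.0261) and ATG2B (0.17, 0.0355). Between the clones, 36 of 50 members were called (72.0%) against 57.7% of 17712 genes, and the calls were uneven: 29 members (58.0%) were lower in clone 37 than in clone 15, where 29% of all genes were, and 7 (14%) were higher, where 28.7% of all genes were. Changes of at least 1.5-fold among the calls numbered 12 members (23.5%) in clone 37 against parental, 11 (21.6%) in clone 15 against parental and 15 (30.0%) between the clones, against 21.8%, 24% and 26.1% of all genes.

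The median log2 fold change of the members was -0.06 in clone 37 against parental, 0.08 in clone 15 against parental and -0.27 in clone 37 against clone 15, where the medians of all genes were 0.02, 0.02 and -0.00. Without parental replicate 2, 33 members were called in clone 37 (64.7%, against 59.4% of all genes) and 25 in clone 15 (49.0% against 48.0%). Without clone 15 replicate 2, 28 were called against parental (54.9% against 47.6%) and 36 between the clones (72.0% against 60.2%). In bulk RNA, fewer cells expressing a gene and less of its RNA per cell cannot be told apart, here and in every value below.

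**Figure D2:**
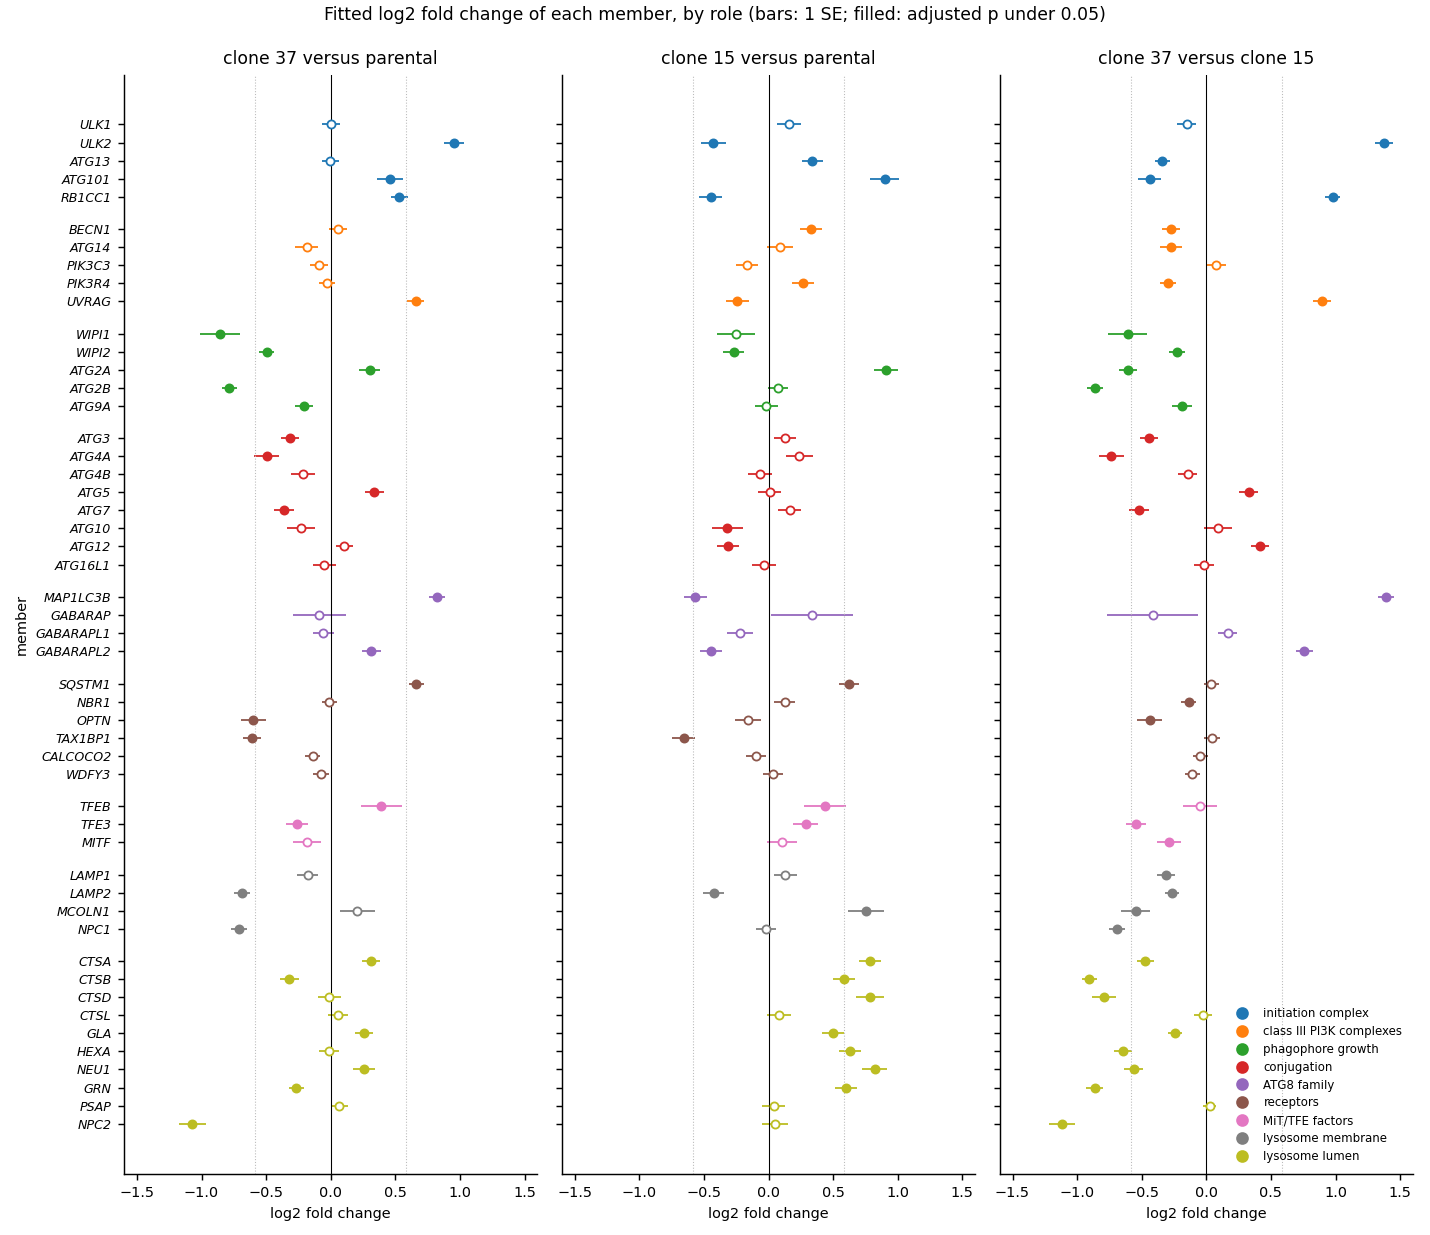
Fitted log2 fold change of 50 members in the 3 comparisons, coloured by role, with bars of 1 SE. Filled points passed an adjusted p of 0.05 and dotted lines mark a 1.5-fold change. MAP1LC3A was not tested and CTSZ lies outside the axes. In the comparison of clone 37 with clone 15, the phagophore growth, lysosome membrane and lysosome lumen genes lie to the left of 0 or next to it, while ULK2, MAP1LC3B, RB1CC1 and UVRAG lie far to the right.

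The initiation complex split by subunit rather than moving as a unit. ULK2, the closest relative of the kinase ULK1, measured 42.4, 33.3 and 37.3 CPM in parental, 30.3, 28.1 and 26.9 CPM in clone 15 and 74.8, 74.6 and 72.1 CPM in clone 37. All clone 37 libraries lay above and all clone 15 libraries below the parental range. ULK2 rose in clone 37 (log2 fold change 0.95 ± 0.08, adjusted p = 1.65e-08), fell in clone 15 (log2 fold change -0.43 ± 0.10, adjusted p = 6.55e-04) and was 2.59-fold higher in clone 37 than in clone 15 (log2 fold change 1.37 ± 0.07, adjusted p = 1.19e-15). RB1CC1, the large scaffold also called FIP200, measured 201, 222 and 199 CPM in parental, 161, 143 and 162 CPM in clone 15 and 293, 308 and 314 CPM in clone 37. The groups again did not overlap and had the order of ULK2, with a rise in clone 37 (log2 fold change 0.53 ± 0.06, adjusted p = 1.80e-06) and a fall in clone 15 (log2 fold change -0.45 ± 0.09, adjusted p = 1.06e-04). The clone 15 call of RB1CC1 was lost once per-library trends with GC content and length were removed (log2 fold change -0.13, adjusted p = 0.167). ATG101, a stabilising subunit of the complex, measured 13.2, 15.9 and 15 CPM in parental, 26, 30.2 and 28.4 CPM in clone 15 and 20.8, 21.4 and 19.8 CPM in clone 37. Here clone 15 was highest, clone 37 intermediate and parental lowest, without overlap, and both clones exceeded parental (0.46 ± 0.10 on the log2 scale in clone 37, adjusted p = 0.00105, and 0.90 ± 0.11 in clone 15, adjusted p = 3.14e-07). The clone 37 call of ATG101 was lost with unstranded counts (0.41, adjusted p = 0.0596). ATG13, the subunit that links the kinase to its regulators, was higher in clone 15 alone (log2 fold change 0.34 ± 0.08, adjusted p = 0.00118), and for ULK1 itself no comparison passed the test (log2 fold changes 0.00 in clone 37 and 0.16 in clone 15). The ULK1 difference between the clones (-0.15, adjusted p = 0.0835) was called without clone 15 replicate 1 (0.0366) or replicate 3 (0.0142).

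Among the class III kinase subunits, UVRAG, which takes the place of ATG14 in the complex that acts on endosomes, changed most in clone 37. It measured 44.7, 45.1 and 43.2 CPM in parental, 40.2, 37.5 and 37 CPM in clone 15 and 70.4, 72.7 and 70.6 CPM in clone 37. The clone 37 libraries were all far above the others, and the clone 15 libraries lay just under the parental ones. UVRAG was 1.58-fold higher in clone 37 than in parental (log2 fold change 0.66 ± 0.06, adjusted p = 1.65e-07). Its fall in clone 15 was small (log2 fold change -0.24 ± 0.09, adjusted p = 0.0255) and was lost under 6 of 16 settings, including those without parental replicate 2 (adjusted p = 0.0503), without clone 15 replicate 2 (0.0661) or without clone 15 replicate 3 (0.0962). BECN1, the core regulator of the complex, rose only slightly in clone 15 (log2 fold change 0.33 ± 0.09, adjusted p = 0.00211), as did the kinase's regulatory subunit PIK3R4 (log2 fold change 0.27 ± 0.08, adjusted p = 0.00886). The PIK3R4 call was lost under 4 of 16 settings, including those without parental replicate 1 (adjusted p = 0.0764) or parental replicate 3 (0.0624). In clone 37 no subunit other than UVRAG passed the test against parental: the log2 fold changes were 0.06 for BECN1, -0.19 for ATG14, -0.09 for PIK3C3 and -0.03 for PIK3R4. The ATG14 value was called without parental replicate 2 (-0.24, adjusted p = 0.0223). ATG14, the subunit that directs the kinase to autophagy, was lower in clone 37 than in clone 15 (log2 fold change -0.27 ± 0.09, adjusted p = 0.00951), a call lost without clone 37 replicate 2 (adjusted p = 0.0661).

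All 5 phagophore growth genes were called in clone 37, 4 lower and 1 higher (27.3% and 26.7% of all genes), and all 5 were lower in clone 37 than in clone 15 (29% of all genes). ATG2B, a lipid transfer protein that helps to feed the growing membrane, measured 133, 128 and 141 CPM in parental, 153, 135 and 145 CPM in clone 15 and 80.8, 79.8 and 77.4 CPM in clone 37. Parental and clone 15 overlapped, and every clone 37 library was far below them, at 0.581 of the parental level (log2 fold change -0.78 ± 0.06, adjusted p = 3.74e-09). Its paralog ATG2A measured 64.7, 49 and 62 CPM in parental, 106, 127 and 102 CPM in clone 15 and 77.5, 72.2 and 69.7 CPM in clone 37. ATG2A was highest in clone 15 (log2 fold change 0.91 ± 0.09, adjusted p = 2.00e-08) and only modestly raised in clone 37 (log2 fold change 0.30 ± 0.08, adjusted p = 0.00669), with no overlap between groups, so the paralogs moved in opposite directions in clone 37. WIPI1, which binds the lipid made by PIK3C3, measured 9.44, 10.1 and 8.80 CPM in parental, 8.19, 7.47 and 8.74 CPM in clone 15 and 5.20, 6 and 4.78 CPM in clone 37. It was a low-level gene and fell in clone 37 (log2 fold change -0.86 ± 0.15, adjusted p = 1.24e-04), while clone 15 lay slightly under parental without passing the test (log2 fold change -0.25 ± 0.15, adjusted p = 0.16). WIPI2, the related protein that recruits ATG16L1, fell in both clones (-0.50 ± 0.06 in clone 37, adjusted p = 1.42e-06, and -0.27 ± 0.08 in clone 15, adjusted p = 0.00668). The clone 15 call of WIPI2 was lost without clone 15 replicate 3 (adjusted p = 0.0537). ATG9A, a lipid scramblase, was slightly lower in clone 37 (log2 fold change -0.21 ± 0.07, adjusted p = 0.0168), a call lost without clone 37 replicate 2 (adjusted p = 0.0714), with GC and length trends removed or against neighbours. Its call between the clones was lost under 7 of 16 settings, including those without clone 15 replicate 2 (adjusted p = 0.0894) and without clone 37 replicate 1, 2 or 3 (0.0693, 0.118 and 0.08). The calls between the clones were also lost for WIPI1 with unstranded counts (-0.28, adjusted p = 0.114) and for WIPI2 with GC and length trends removed (-0.09, adjusted p = 0.148). Of the exonic length of ATG9A, 38.8% overlaps another gene on the same strand, so its counts are uncertain.

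None of the 8 conjugation genes was called with a 1.5-fold change against parental in either clone, where 21.8% of all genes in clone 37 and 24% in clone 15 were. In clone 37, 3 were lower and 1 higher than parental (27.3% and 26.7% of all genes). ATG4A, a protease that processes ATG8 proteins, fell by 0.50 on the log2 scale (SE 0.10, adjusted p = 3.10e-04), ATG7, the activating enzyme of both conjugation routes, changed by -0.36 ± 0.08 (adjusted p = 8.01e-04), and ATG3, which passes ATG8 proteins on to the lipid, changed by -0.31 ± 0.07 (adjusted p = 9.54e-04). ATG5, the acceptor of ATG12, was the gene that rose (log2 fold change 0.34 ± 0.08, adjusted p = 0.00106). In clone 15, ATG12 fell (log2 fold change -0.31 ± 0.09, adjusted p = 0.00365), but the change shrank to -0.03 (adjusted p = 0.725) once GC and length trends were removed. ATG10, the enzyme that passes ATG12 to ATG5, also fell in clone 15 (log2 fold change -0.32 ± 0.12, adjusted p = 0.033), a call lost under 9 of 16 settings, including those without parental replicate 2 (adjusted p = 0.121) and without clone 15 replicate 1, 2 or 3 (0.083, 0.0998 and 0.0516). Between the clones 3 of the 8 were lower in clone 37 and 2 higher (29% and 28.7% of all genes), with ATG4A at 0.601 of its clone 15 level (log2 fold change -0.74 ± 0.10, adjusted p = 2.32e-07), ATG7 at -0.52 ± 0.08 and ATG3 at -0.44 ± 0.07 on the log2 scale (adjusted p = 1.59e-06 and 2.37e-06). ATG16L1 and ATG4B passed the test in no comparison. ATG4B in clone 37, at -0.21 (adjusted p = 0.0704), was however called without parental replicate 2 (-0.34, adjusted p = 4.67e-07), and between the clones without clone 15 replicate 3 (-0.22, adjusted p = 0.0234). Without clone 15 replicate 2, ATG4A (0.32, adjusted p = 0.013) and ATG7 (0.22, adjusted p = 0.0396) were called higher in clone 15 than in parental.

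The ATG8 family, whose lipid-bound members coat the autophagosome, held the largest fitted increase of clone 37 over clone 15 among the members tested. MAP1LC3B, the gene of LC3B, the standard marker of autophagosomes, measured 66, 73 and 68.8 CPM in parental, 47.9, 46.8 and 48.9 CPM in clone 15 and 125, 119.5 and 130.4 CPM in clone 37. No libraries of different groups overlapped, and the clone 37 level was 1.77-fold the parental level (log2 fold change 0.82 ± 0.06, adjusted p = 9.23e-09). In clone 15 MAP1LC3B was at 0.676 of parental (log2 fold change -0.57 ± 0.09, adjusted p = 5.15e-06), and clone 37 exceeded clone 15 2.62-fold (log2 fold change 1.39 ± 0.06, adjusted p = 5.61e-17). Of the 75-base words in its transcript, 8.91% also occur in genes elsewhere in the annotation, so a small share of its reads may have been left uncounted. GABARAPL2 measured 67.8, 76.2 and 68.2 CPM in parental, 53.4, 53.5 and 52.4 CPM in clone 15 and 91, 82.7 and 94.9 CPM in clone 37. It had the same order as MAP1LC3B without overlap, with a smaller rise in clone 37 (log2 fold change 0.31 ± 0.07, adjusted p = 0.00137) and a fall in clone 15 (log2 fold change -0.45 ± 0.09, adjusted p = 1.15e-04). GABARAPL1 measured 42.8, 45.5 and 37.7 CPM in parental, 34.3, 36.5 and 39.9 CPM in clone 15 and 41, 41.4 and 40.9 CPM in clone 37. The 3 groups overlapped or nearly touched and no comparison passed the test (adjusted p = 0.571 for clone 37 and 0.0626 for clone 15 against parental). GABARAPL1 was called lower in clone 15 without parental replicate 3 (-0.33, adjusted p = 0.0126) or clone 15 replicate 3 (-0.26, adjusted p = 0.0472), and without the latter also higher in clone 37 than in clone 15 (0.21, adjusted p = 0.0255). GABARAP, the founding member of its branch, measured 4.16, 3.67 and 3.21 CPM in parental, 3.62, 3.17 and 7.77 CPM in clone 15 and 3.74, 3.48 and 3.32 CPM in clone 37. Clone 15 replicate 3 stood far above all other libraries, the groups otherwise overlapped, and no comparison passed the test. Of its exonic length, 30.5% overlaps another gene on the same strand, which makes the low counts of GABARAP uncertain. MAP1LC3A, the gene of LC3A, had 0 counts in the 3 parental libraries, 11 counts over clone 15 and 2 over clone 37, too few to be tested. Over the pooled parental libraries a count of 0 allows up to 0.0794 CPM by counting error alone. The pooled level was 0.135 CPM in clone 15, whose libraries had 1, 6 and 4 counts, and 0.0595 CPM in clone 37.

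Cargo receptors tie ubiquitinated material to the ATG8 proteins, and they included a rise and a fall of like size in both clones. SQSTM1, also known as p62, measured 98.6, 99.3 and 97.1 CPM in parental, 149.5, 163 and 151 CPM in clone 15 and 154, 157 and 164 CPM in clone 37. Every library of either clone lay above every parental library, and the clones overlapped. SQSTM1 rose 1.58-fold in clone 37 (log2 fold change 0.66 ± 0.06, adjusted p = 3.16e-08) and 1.54-fold in clone 15 (log2 fold change 0.62 ± 0.08, adjusted p = 3.12e-07). The log2 difference between the clones was 0.04 ± 0.05 (adjusted p = 0.552), with an approximate 95% interval of -0.07 to 0.15, and was called at 0.21 (adjusted p = 0.000173) with GC and length trends removed and at -0.27 (adjusted p = 0.000152) with its chromosome neighbours as reference. TAX1BP1, a receptor that also recruits the initiation complex, measured 136, 159 and 133 CPM in parental, 94.9, 86.5 and 96.3 CPM in clone 15 and 93, 93.7 and 99.3 CPM in clone 37. Here every clone library lay below every parental library, with falls of like size in clone 37 (log2 fold change -0.61 ± 0.07, adjusted p = 1.88e-06) and clone 15 (log2 fold change -0.66 ± 0.09, adjusted p = 1.13e-06). The clones overlapped, and their log2 difference of 0.05 had an approximate 95% interval of -0.08 to 0.17. OPTN, a receptor in the clearance of mitochondria, fell in clone 37 (log2 fold change -0.60 ± 0.10, adjusted p = 4.63e-05), and its change in clone 15 did not pass the test (-0.16, adjusted p = 0.208). WDFY3, the large adaptor also called ALFY that is known from the clearance of polyglutamine aggregates, was measured at 172 ± 9.93 CPM in parental, 179 ± 7.32 CPM in clone 15 and 166 ± 12.2 CPM in clone 37 (SD, n = 3 each) and passed the test in no comparison. It was called in clone 37 without parental replicate 2 (-0.12, adjusted p = 0.0223), and between the clones without clone 15 replicate 2 (-0.17, adjusted p = 0.00254). CALCOCO2, a receptor for bacteria and mitochondria, passed in no comparison either, with -0.14 in clone 37 (adjusted p = 0.0545), but was called there without parental replicate 2 (-0.13, adjusted p = 0.0331) or replicate 3 (-0.19, adjusted p = 0.0385). NBR1, a relative of SQSTM1, passed between the clones only narrowly (log2 fold change -0.13 ± 0.06, adjusted p = 0.0493), and that call was lost under 11 of 16 alternative settings, among them those without clone 15 replicate 1 (adjusted p = 0.0568) or 3 (0.156) and without clone 37 replicate 1, 2 or 3 (0.0913, 0.283 and 0.0676). NBR1 was called higher in clone 15 than in parental without parental replicate 2 (0.18, adjusted p = 0.0307) or clone 15 replicate 2 (0.18, adjusted p = 0.0477).

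The MiT/TFE factors, the transcription factors of the lysosomal genes, were expressed at low to moderate levels. TFEB measured 7.31, 5.32 and 5.74 CPM in parental, 8.03, 8.65 and 8.58 CPM in clone 15 and 8.40, 7.35 and 8.50 CPM in clone 37. Parental replicate 1 lay just under the lowest clone 37 library. TFEB passed the test narrowly in clone 37 (log2 fold change 0.39 ± 0.16, adjusted p = 0.0474) and in clone 15 (log2 fold change 0.44 ± 0.16, adjusted p = 0.0237). The clone 37 call was lost under 12 of 16 settings, including DESeq2 (adjusted p = 0.133), and the clone 15 call under 6. Leaving out single libraries ended both: in clone 37 the adjusted p was 0.096 without parental replicate 2, 0.163 without parental replicate 3 and 0.134, 0.0509 and 0.174 without clone 37 replicate 1, 2 or 3, and in clone 15 it was 0.0731 without parental replicate 2, 0.114 without parental replicate 3 and 0.053 without clone 15 replicate 3. TFE3 measured 36.1, 40.7 and 35.4 CPM in parental, 42.7, 47.5 and 50.5 CPM in clone 15 and 33.5, 30.6 and 31.5 CPM in clone 37. Its groups did not overlap, with clone 15 above and clone 37 below parental (0.29 ± 0.10 on the log2 scale, adjusted p = 0.0155, and -0.26 ± 0.08, adjusted p = 0.0136). The call against parental was lost under 2 of 16 settings in clone 37 and 6 of 16 in clone 15. Among these, the clone 37 call was lost without clone 37 replicate 2 (adjusted p = 0.0729), and the clone 15 call without parental replicate 1 (0.0903), parental replicate 3 (0.11) or clone 15 replicate 3 (0.0532). The difference between the clones was larger (log2 fold change -0.55 ± 0.08, adjusted p = 8.77e-07). MITF measured 17.5, 21.6 and 18.1 CPM in parental, 20.8, 21 and 21.3 CPM in clone 15 and 18.4, 16.3 and 16.8 CPM in clone 37. Parental overlapped both clones and neither comparison with parental passed the test, while clone 37 was lower than clone 15 (log2 fold change -0.29 ± 0.09, adjusted p = 0.011), a call lost without clone 37 replicate 2 (adjusted p = 0.0764).

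All 4 membrane proteins of the lysosome were lower in clone 37 than in clone 15, as were 29% of all genes. Against chromosome neighbours, a test described below, the calls of LAMP1 and MCOLN1 were kept. Those of LAMP2 and NPC1 were lost (0.04 and 0.02, adjusted p = 0.554 and 0.771). LAMP2, a heavily glycosylated coat protein needed for autophagosomes to fuse with lysosomes, measured 222, 245 and 213 CPM in parental, 176, 172 and 170.0 CPM in clone 15 and 144, 141 and 146 CPM in clone 37. Parental was highest, clone 15 intermediate and clone 37 lowest, without overlap, so that LAMP2 fell in both clones (-0.69 ± 0.06 in clone 37, adjusted p = 1.16e-07, and -0.43 ± 0.08 in clone 15, adjusted p = 1.55e-04). The clone 15 fall shrank to -0.16 (adjusted p = 0.105) with GC and length trends removed. NPC1, the cholesterol exporter mutated in Niemann-Pick disease type C, measured 87, 87.4 and 90.5 CPM in parental, 91.1, 88 and 87.3 CPM in clone 15 and 53.2, 56.8 and 54.6 CPM in clone 37. Its level was at 0.611 of parental in clone 37 alone (log2 fold change -0.71 ± 0.06, adjusted p = 2.83e-08), with clone 15 inside or next to the parental range (-0.02, adjusted p = 0.84). MCOLN1, the calcium channel TRPML1, measured 8.97, 11.9 and 13 CPM in parental, 18.7, 22.8 and 17.4 CPM in clone 15 and 14.3, 12.7 and 13.1 CPM in clone 37. Clone 15 was above the other groups (log2 fold change 0.75 ± 0.14, adjusted p = 6.05e-05), and clone 37 overlapped parental (0.21, adjusted p = 0.207). LAMP1, the main companion of LAMP2, measured 43.7, 50.9 and 51.4 CPM in parental, 52.7, 56.8 and 53.9 CPM in clone 15 and 47.1, 43 and 41.5 CPM in clone 37. It passed the test against parental in neither clone (-0.18 and 0.13, adjusted p = 0.0677 and 0.236), but was called lower in clone 37 without parental replicate 1 (-0.26, adjusted p = 0.016). Of the 3 members whose promoters are printed above, CTSA rose in both clones, MCOLN1 in clone 15, and LAMP1 passed the test only between the clones (log2 fold change -0.31 ± 0.07, adjusted p = 4.20e-04).

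In the lysosomal lumen, clone 15 stood above parental: 7 of 11 members were called higher and 1 lower (25.1% and 26.2% of all genes), with a median log2 fold change of 0.58. In clone 37 the calls were mixed, 3 higher and 4 lower (26.7% and 27.3% of all genes). Against clone 15, 8 of 10 tested members were lower in clone 37 and none was higher (29% and 28.7% of all genes). Summed over the 11 genes, the level was 854 ± 45.2 CPM in parental, 1135 ± 46.9 CPM in clone 15 and 879 ± 9.73 CPM in clone 37 (SD, n = 3 each). CTSB, a cysteine protease, measured 76.3, 89.6 and 78.8 CPM in parental, 119, 129 and 128 CPM in clone 15 and 67.4, 65.2 and 67.3 CPM in clone 37. It rose in clone 15 (log2 fold change 0.58 ± 0.09, adjusted p = 3.46e-06) and fell in clone 37 (log2 fold change -0.32 ± 0.07, adjusted p = 9.98e-04), without overlap between any groups. GRN, the gene of progranulin, which supports lysosomal function, measured 97.2, 104 and 105 CPM in parental, 152, 181 and 142 CPM in clone 15 and 90, 84.4 and 84.9 CPM in clone 37. It had the same order, clone 15 above parental (log2 fold change 0.60 ± 0.09, adjusted p = 2.80e-06) and clone 37 below it (log2 fold change -0.27 ± 0.06, adjusted p = 0.00114). The clones differed in CTSB by -0.90 ± 0.06 and in GRN by -0.87 ± 0.07 on the log2 scale (adjusted p = 2.86e-13 and 6.02e-11).

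NEU1, the lysosomal sialidase, measured 25.7, 26.9 and 24.7 CPM in parental, 43.9, 48 and 47.9 CPM in clone 15 and 32.8, 32.2 and 29.4 CPM in clone 37, and CTSA, the protective protein that holds NEU1 in an active complex, measured 38.3, 35.3 and 41.3 CPM in parental, 65.4, 70 and 66.6 CPM in clone 15 and 48.9, 47.2 and 48.8 CPM in clone 37. These partners had the same order, clone 15 highest, clone 37 intermediate and parental lowest, with no overlap. NEU1 rose 1.77-fold in clone 15 (log2 fold change 0.82 ± 0.09, adjusted p = 7.81e-08) and CTSA 1.72-fold (log2 fold change 0.79 ± 0.09, adjusted p = 3.34e-08). In clone 37 the rises were smaller (log2 fold change 0.26 ± 0.08, adjusted p = 0.0136 for NEU1, and log2 fold change 0.31 ± 0.07, adjusted p = 0.0016 for CTSA), and the NEU1 call was lost under 5 of 16 settings, including those without parental replicate 3 (adjusted p = 0.127) or clone 37 replicate 1 (0.0715). GLA also rose in both clones (0.26 ± 0.07 and 0.50 ± 0.09, adjusted p = 0.00371 and 2.77e-05), the clone 37 call being lost without parental replicate 3 (0.0942) or clone 37 replicate 3 (0.0754). The aspartic protease CTSD and HEXA, a subunit of beta-hexosaminidase, rose in clone 15 alone (0.79 ± 0.11 and 0.63 ± 0.09, adjusted p = 1.47e-06 and 1.11e-06), with log2 fold changes of -0.01 and -0.01 in clone 37. Of the exonic length of CTSD, 41.7% overlaps another gene on the same strand, so its counts are uncertain. PSAP and the cysteine protease CTSL passed the test in no comparison. PSAP in clone 37, at 0.07, was called without parental replicate 2 (0.13, adjusted p = 0.00612).

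NPC2, the soluble partner that hands cholesterol to NPC1, measured 24.9, 27.8 and 27.1 CPM in parental, 26.1, 28.2 and 30.3 CPM in clone 15 and 12.5, 14.6 and 11.7 CPM in clone 37. Parental and clone 15 overlapped, while clone 37 was at 0.476 of parental (log2 fold change -1.07 ± 0.10, adjusted p = 1.31e-07) and at 0.461 of clone 15 (log2 fold change -1.12 ± 0.10, adjusted p = 1.96e-10). Both partners of cholesterol export were lower in clone 37, and in clone 15 neither passed the test (log2 fold changes -0.02 for NPC1 and 0.05 for NPC2). CTSZ, a cysteine protease also called cathepsin X, measured 4.53, 4.82 and 3.67 CPM in parental, 0.289, 0.406 and 0.858 CPM in clone 15 and 0.183, 0.0968 and 0 CPM in clone 37. It was low in parental cells and close to 0 in both clones, and it entered the tests only through its parental counts. Over the pooled libraries it had 164 counts in parental, 37 in clone 15 and 3 in clone 37. The parental level was 9.55 times that of clone 15 (95% exact interval 6.65 to 14) and 48.7 times that of clone 37 (95% exact interval 16.4 to 238), and these intervals cover counting error only. Its calls are part of the counts of members called, but having passed the filter through parental alone they are not read as a test.

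**Figure D3:**
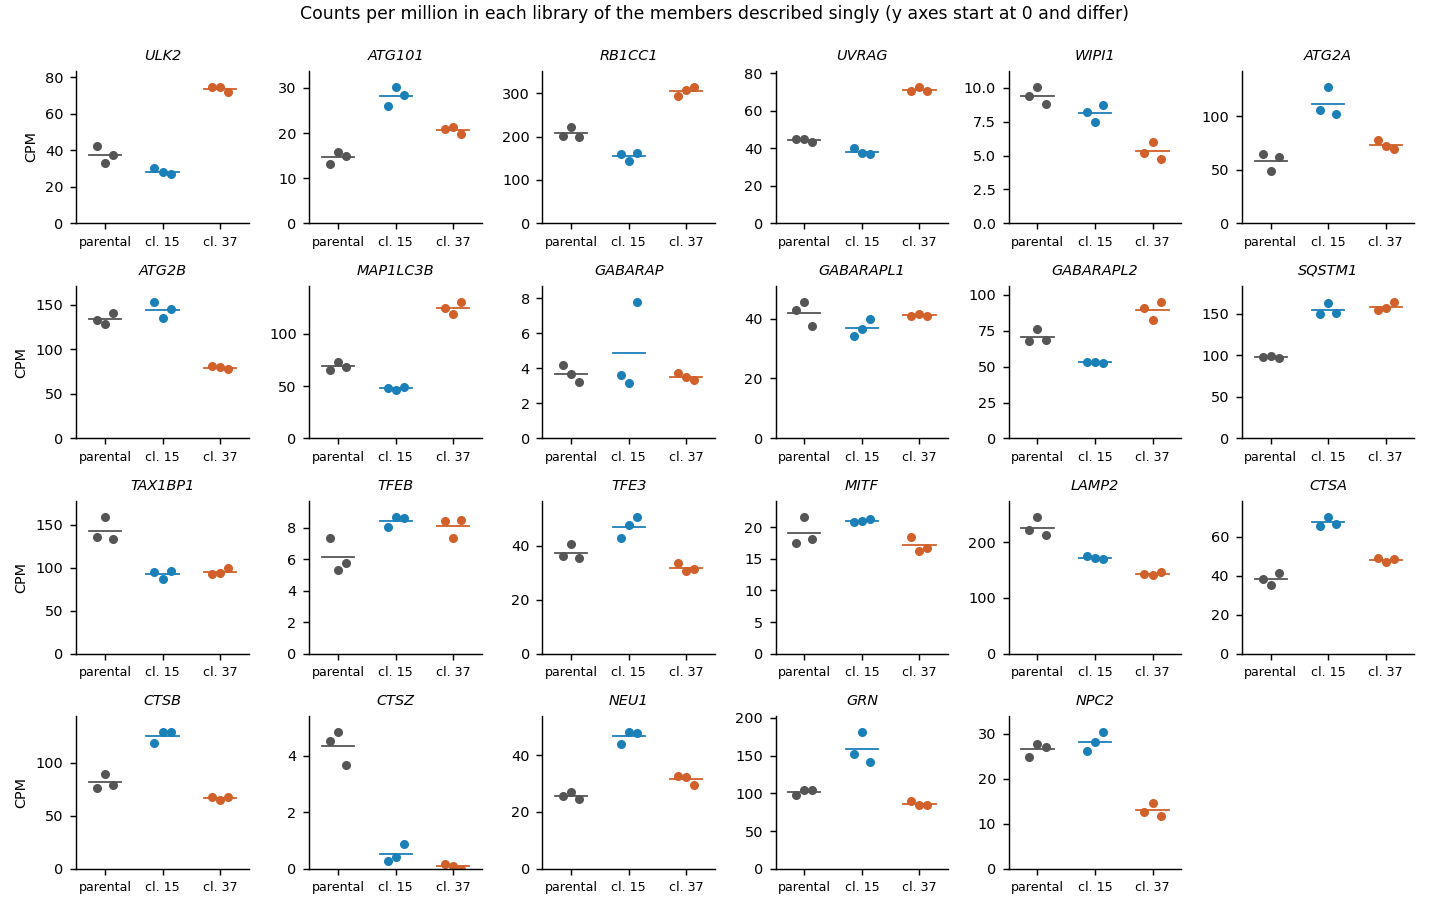
Level in CPM of 23 members described singly, each panel with its own axis from 0, with 1 point per library and a line at the mean of 3 libraries, in parental (grey), clone 15 (blue) and clone 37 (orange). ULK2, RB1CC1, UVRAG, MAP1LC3B and GABARAPL2 are highest in clone 37 and lowest in clone 15, CTSB, GRN and TFE3 show the reverse, SQSTM1 is raised and TAX1BP1 lowered in both clones, and CTSZ is near 0 in both.

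The values of both clones can be set side by side, with the caution that both comparisons use the same 3 parental libraries. Among members that moved alike, SQSTM1 changed by 0.66 in clone 37 and 0.62 in clone 15, ATG101 by 0.46 and 0.90, CTSA by 0.31 and 0.79, ATG2A by 0.30 and 0.91, and NEU1 by 0.26 and 0.82. TAX1BP1 changed by -0.61 and -0.66, LAMP2 by -0.69 and -0.43 and WIPI2 by -0.50 and -0.27. Each of these values passed the test. MAP1LC3B, RB1CC1, ULK2, GABARAPL2 and UVRAG, in contrast, rose in clone 37 and fell in clone 15, and CTSB, GRN and TFE3 did the reverse. These 8 are 15.7% of the 51 members tested in both clones, where 6.55% of the 16360 genes tested in both were called in opposite directions. In all 8 the libraries of the clones lay on opposite sides of every parental library, as held for 6.01% of those genes together with the calls. They are described by those calls, and a difference between the clones follows from the choice. Of these 8, ULK2, CTSB and GRN kept both calls against parental under all 16 alternative settings. SQSTM1 and CTSA also kept their calls in both clones under all of them.

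Genes can also change together with their surroundings on a chromosome, so each member was set beside the 100 tested genes nearest to it, summarised by their median change on the log2 scale. These medians ranged from -0.69 to 0.68 in clone 37 against parental, from -0.45 to 0.41 in clone 15 against parental and from -0.72 to 0.76 between the clones. Among the called members, 22 of 29, 23 of 27 and 31 of 36 had the sign of their neighbours (75.9%, 85.2% and 86.1%), against 79.0%, 75.1% and 72.2% of all called genes. Over members, Pearson's r between a member and its neighbours was 0.61 and 0.51 in the comparisons with parental (without CTSZ, and 0.22 and 0.24 with it) and 0.59 between the clones. These correlations are descriptions, since some members share neighbours and all share libraries. MAP1LC3B (chromosome 16, 87383995 to 87404779, GRCh38) and GABARAPL2 (chromosome 16, 75566351 to 75577881) both lie on the long arm of chromosome 16, where the neighbours rose in clone 37 by medians of 0.68 and 0.51. NPC1 (chromosome 18, 23506184 to 23586898) lies among genes that were lower in clone 37 by a median of -0.69, close to its own change of -0.71. PIK3C3, also on chromosome 18, had neighbours at -0.66 and itself changed by -0.09.

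Tested against their neighbours, 20 of the 29 calls in clone 37 kept their direction, 7 were lost (ATG3, NEU1, TFEB, ATG4A, ATG2A, MAP1LC3B and NPC1) and 2 reversed (ATG9A and GABARAPL2). Another 9 calls were gained in clone 37, so that 31 of 51 members were called (60.8%), against 43.0% of all genes. In clone 15, 17 of 27 kept their direction and 10 were lost (RB1CC1, TAX1BP1, TFE3, GABARAPL2, ATG13, BECN1, PIK3R4, ATG10, TFEB and WIPI2). ATG13 and BECN1 stood at 0.09 and 0.03 relative to their neighbours (adjusted p = 0.412 and 0.799). Another 10 calls were gained in clone 15, so that 27 of 51 members were called (52.9%), against 42.3% of all genes. Between the clones, 27 of 36 kept their direction, PIK3R4 reversed and 8 were lost (ATG5, GLA, LAMP2, ATG14, GABARAPL2, BECN1, NBR1 and NPC1). Here 6 calls were gained, so that 34 of 50 members were called (68%), against 50.8% of all genes. SQSTM1, among those gained, was not called between the clones in its own right. It was lower in clone 37 relative to its neighbours (-0.27, adjusted p = 0.000152). The rise of ULK2 (chromosome 17, 19770829 to 19867936) in clone 37 stood well above that of its neighbours (0.18), and its fall in clone 15 went against neighbours at 0.35. CTSB and NPC2 also kept their calls in clone 37, beside neighbours at 0.01 and -0.42. For MAP1LC3B the difference from its neighbours in clone 37 was 0.14 (adjusted p = 0.0853), while in clone 15 and between the clones its calls were kept, the difference between the clones shrinking from 1.39 to 0.63.

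**Figure D4:**
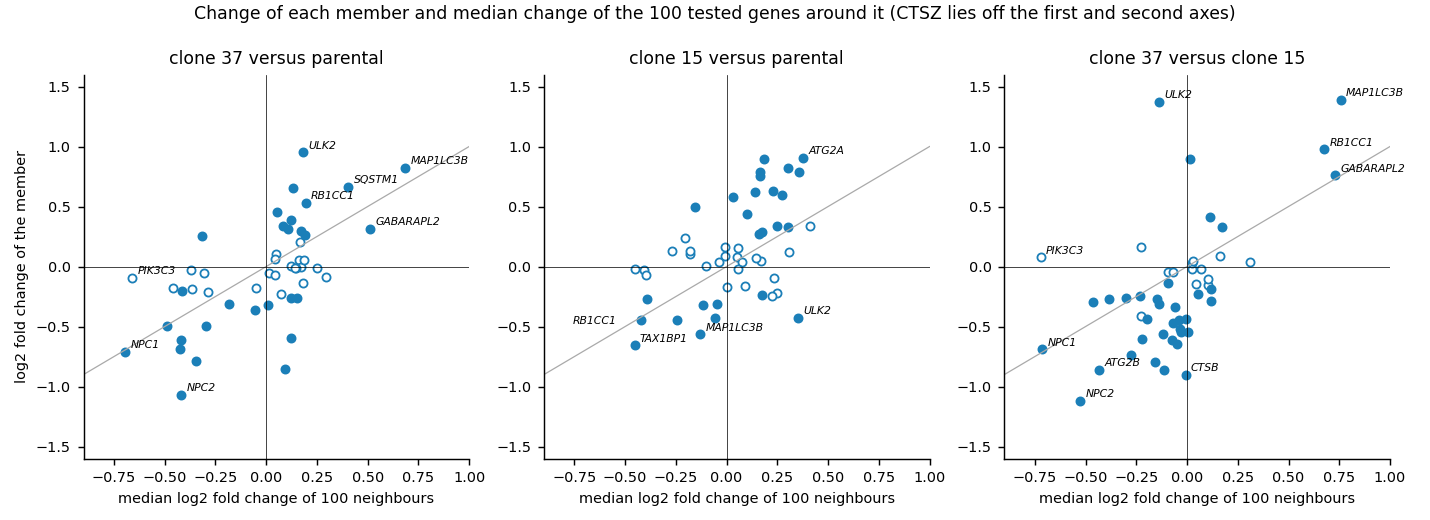
Log2 fold change of each tested member (vertical axis) against the median of the same quantity over the 100 nearest tested genes (horizontal axis) in the 3 comparisons. Filled points passed an adjusted p of 0.05 and the diagonal marks equal change. NPC1 lies on or near the diagonal where clone 37 is compared, MAP1LC3B and GABARAPL2 lie at its upper right, and ULK2 lies far above it in the comparisons of clone 37 and below it in clone 15.

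A further 155 genes of the same pathways, in 7 lists, were tested beside the members. For single genes of these lists, values against neighbours or under the other alternative settings are not given. How far their calls depend on such settings is therefore left unstated. In clone 37 against parental, 39 of 151 tested genes were higher and 49 lower (25.8% and 32.5%, against 26.7% and 27.3% of all genes), and in clone 15 against parental 51 of 152 were higher and 35 lower (33.6% and 23.0%, against 25.1% and 26.2%). Between the clones, 38 of 152 were higher in clone 37 and 70 lower (25% and 46.1%, against 28.7% and 29% of all genes), with a median log2 fold change of -0.13. Of the autophagosome to lysosome fusion list, 11 of 18 genes were lower in clone 37 than in clone 15 and 2 higher, of the V-ATPase subunits, which acidify the lysosome, 9 of 16 were lower and 5 higher, and of other lysosomal enzymes and transporters 17 of 37 were lower and 11 higher. In the lists of delivery of enzymes to lysosomes, of mTORC1 and AMPK signalling, of other core autophagy genes and of other selective receptors, 5 of 13, 13 of 32, 8 of 16 and 7 of 20 genes were lower, and 3, 9, 3 and 5 higher. Each of these counts is to be read against the 29% of all genes that were lower and the 28.7% that were higher.

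VAMP8, the SNARE protein of the lysosome that drives fusion with autophagosomes, measured 11.9, 13.4 and 12.6 CPM in parental, 3.36, 3.70 and 2.84 CPM in clone 15 and 2.37, 3.29 and 2.91 CPM in clone 37. Every clone library was far below every parental library (log2 fold changes -2.17 and -1.96, adjusted p = 5.84e-09 and 2.77e-10). VPS18, a core subunit of the tethering complexes, rose in both clones (0.46 in clone 37 and 0.98 in clone 15, adjusted p = 0.00106 and 2.02e-08). BNIP3, a mitochondrial receptor, fell in both (-0.80 and -1.55, adjusted p = 3.52e-05 and 1.02e-11), and PINK1, the kinase that marks damaged mitochondria, rose in both (0.53 and 0.57, adjusted p = 4.31e-06 and 6.66e-06). Among the other core autophagy genes, TRAPPC8, a subunit of a vesicle tethering complex, fell in clone 37 (-1.34 in clone 37 and -0.07 in clone 15, adjusted p = 4.15e-12 and 0.474). The change in clone 15 did not pass the test. SESN2, a leucine sensor upstream of mTORC1, fell in both clones (-1.11 in clone 37 and -0.56 in clone 15, adjusted p = 2.27e-10 and 3.47e-06). CTNS, the cystine exporter, rose in both (0.39 in clone 37 and 1.04 in clone 15, adjusted p = 0.00583 and 2.87e-08), and HGSNAT, an enzyme of heparan sulfate breakdown, fell in both (-0.22 in clone 37 and -1.16 in clone 15, adjusted p = 0.0127 and 1.72e-10).

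Of the V-ATPase subunits, ATP6V0E1 rose in both clones (0.80 in clone 37 and 0.38 in clone 15, adjusted p = 9.78e-08 and 0.00185), while its paralog ATP6V0E2 moved in opposite directions (-0.71 in clone 37 and 0.37 in clone 15, adjusted p = 5.27e-07 and 0.0018). ATP6V0B rose in both (0.29 in clone 37 and 0.81 in clone 15, adjusted p = 0.00406 and 1.22e-07) and the catalytic subunit ATP6V1A fell in both (-0.24 in clone 37 and -0.32 in clone 15, adjusted p = 0.0028 and 0.00176). NAGPA, which uncovers the mannose 6-phosphate tag of lysosomal enzymes (0.49 in clone 37 and 0.46 in clone 15, adjusted p = 0.00316 and 0.00474), RRAGB, a GTPase that recruits mTORC1 (0.54 in clone 37 and 0.52 in clone 15, adjusted p = 4.33e-04 and 0.0011), FLCN, a regulator of mTORC1 at the lysosome (0.49 in clone 37 and 0.70 in clone 15, adjusted p = 2.36e-04 and 3.76e-06), and the sorting adaptor GGA3 (0.33 in clone 37 and 0.47 in clone 15, adjusted p = 6.82e-04 and 3.05e-05) also rose in both clones. The lysosomal membrane protein TMEM192 (1.00 in clone 37 and -0.10 in clone 15, adjusted p = 3.53e-09 and 0.396) and TBK1, a kinase that phosphorylates receptors (0.51 in clone 37 and 0.07 in clone 15, adjusted p = 3.04e-05 and 0.592), passed the test against parental in clone 37 only and were higher there than in clone 15 (adjusted p = 6.90e-14 and 2.27e-05). RUBCN, an inhibitor of the UVRAG complex (0.00 in clone 37 and 0.85 in clone 15, adjusted p = 0.973 and 6.81e-09), passed in clone 15 only and was lower in clone 37 than in clone 15 (adjusted p = 1.73e-11). The related adaptor GGA2 moved in opposite directions (0.16 in clone 37 and -0.42 in clone 15, adjusted p = 0.0154 and 4.50e-05), and the stress protein SESN3 (-0.25 in clone 37 and -0.62 in clone 15, adjusted p = 0.00144 and 4.09e-07) and the protease ATG4C (-0.20 in clone 37 and -0.74 in clone 15, adjusted p = 0.0317 and 2.92e-07) fell in both.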

How the data were processed

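The authors deposited raw counts per gene for each of the 9 libraries, in the layout of STAR's gene counts. Per the labels' protocols, 500 ng of RNA was depleted of ribosomal RNA and turned into strand-specific libraries with 13 PCR cycles. STAR 2.7.10a, FastQC 0.11.9 and hg38 are named in the submitters' processing notes. The annotation release, trimming and filters are not given in the sources used here. Column 4 was used, the strand that held 92.6% to 94.0% of stranded counts. The 4 summary entries, 40.3% to 49.1% of read pairs, belong to no gene and were left out of totals and fits. Multimapping pairs, 4.59% to 6.0% in clone 15 and 10.4% to 14% elsewhere, are not counted.

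Counts were filtered with filterByExpr, TMM-normalised and tested per pair of groups (6 libraries) with edgeR 4.0.16 (glmQLFit, robust, and glmQLFTest) in R 4.3.3, with Benjamini-Hochberg adjustment over all genes tested. The SE is the log2 fold change divided by the square root of F. CPM are counts scaled to 1000000 gene counts per library, and CPM per kb divide these by the longest coding transcript of GENCODE 29 on GRCh38, which matched 58496 of 60683 gene IDs. Symbols came from the gene name table for 60370 IDs. The tests were tested on simulated counts.

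Same-numbered replicates did not deviate together (correlations of -0.16 to 0.02), so the main tests have no replicate block. The 11 alternatives, 16 settings per comparison, were RLE size factors, DESeq2 1.42.0, no filter, 1 CPM in 3 libraries, unstranded counts, all 9 libraries in 1 fit, a replicate block, thinning to 10334090 counts, removal of GC and length trends, neighbours, and leaving out each replicate. Members, lists and tests were chosen with earlier results of these data known. Single values are given for the 4 largest called rises and falls in each comparison with parental, the 3 largest each way between the clones, the 5 largest changes shared by both clones, members with opposite calls, the ATG8 family, the MiT/TFE factors and, from each other list, the most changed called gene each way, of which some are not reported here. LAMP1, MCOLN1 and NPC1, with values in every library, were added after their values were seen, and other members are given by changes and counts. Intervals and limits from counts cover counting error only. Python 3.11.15, pandas 2.3.3, numpy 2.4.6, scipy 1.17.1 and matplotlib 3.10.9 were used.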

Additional observations from a re-analysis of the deposited data

Results flagged for a closer look

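In 8 members the clones were called in opposite directions from parental, as were 6.55% of the 16360 genes tested in both clones. The members were picked for these calls, so the differences between the clones follow from the choice and are given as a description. The log2 difference of clone 37 against clone 15 was 1.39 for MAP1LC3B, 1.37 for ULK2, 0.98 for RB1CC1, 0.90 for UVRAG and 0.76 for GABARAPL2. It was -0.90 for CTSB, -0.87 for GRN and -0.55 for TFE3. In each of these genes all 3 libraries of one clone lay above and all 3 of the other below every parental library, which held for 6.01% of all genes together with the opposite calls. Read length cannot be told apart from clone 15. With the genes around each as reference, the difference was 0.03 for GABARAPL2, 0.30 for RB1CC1 and 0.63 for MAP1LC3B, and 1.51 for ULK2, 0.88 for UVRAG, -0.90 for CTSB, -0.75 for GRN and -0.52 for TFE3.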

How the results depend on the processing

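Over all alternatives the members called numbered 26 to 33 in clone 37 against parental (29 as reported), 23 to 29 in clone 15 (27) and 32 to 38 between the clones (36), while all genes called numbered 7020 to 10027 (8903), 7391 to 9778 (9092) and 8878 to 11033 (10223). Members lower in clone 37 than in clone 15 numbered 25 to 30 (29). Of the calls, 17 of 29, 14 of 27 and 23 of 36 were kept under every alternative in which they were tested, and 23, 18 and 30 under all but the test against neighbours. With a replicate block 28, 27 and 37 members were called. Same-numbered libraries share only a number, and the block changed no count of members by more than 1.5 times. It ended the call of TFEB in clone 37 (adjusted p = 0.0611) and added one for ULK1 between the clones (0.0392).

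The median log2 fold change of the members in clone 37 against parental was -0.069 with RLE or DESeq2, -0.080 with 1 CPM in 3 libraries, -0.087 with unstranded counts, -0.091 with thinning, -0.10 against neighbours and 0.0082, a change of sign, without GC and length trends, and ran from -0.083 to -0.054 as each replicate was left out. In clone 15 it was 0.018 with unstranded counts and 0.17 without GC and length trends, and ran from 0.021 to 0.12. Between the clones it was -0.23 with unstranded counts, -0.20 without GC and length trends and -0.19 against neighbours, and ran from -0.30 to -0.23. Without a filter the median of all genes moved to 0.14 in clone 15 and -0.12 between the clones. Members called in clone 15 numbered 21 higher and 7 lower without GC and length trends (16 and 11 as reported). Against neighbours, members with a 1.5-fold call numbered 5 and 6 in clones 37 and 15 against parental and 9 in the direct comparison (9.80%, 11.8% and 18% of members), where 15.8%, 18.2% and 19.6% of all genes had one (from 21.8%, 24% and 26.1%).

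Among members called with either reference, the sign turned against neighbours for PIK3C3 (0.57), PIK3R4 (0.34), ATG9A (0.21), ATG16L1 (0.26), GABARAPL2 (-0.20) and LAMP1 (0.28) in clone 37, for WIPI2 (0.12), ATG4B (0.33), ATG9A (0.43) and ATG16L1 (0.37) in clone 15, and for ATG14 (0.11), PIK3R4 (0.17), SQSTM1 (-0.27), LAMP2 (0.041) and NPC1 (0.025) between the clones. That test changes the reference by construction, and the cause of the other shifts was not tested. With 3 libraries a group and totals of 10334090 to 38093340 counts, the values of MAP1LC3A and, in the clones, CTSZ rested on few counts. Whether deeper libraries would change these values was not tested.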
